A study of Mus musculus with 4 samples.

Results

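Ms4a4b immune nuclei are 61 nuclei of the mouse posterior hindbrain, chosen as those that the authors kept and annotated as Ms4a4b.Immune, out of 39461 kept nuclei in 4 libraries. Nearly all of them, 57, carried genes of white blood cells. Genes of T and natural killer (NK) cells were found in 22, however, and genes of myeloid cells or MHC class II without any lymphocyte set in 30, so the nuclei are named here by their marker and not as lymphoid cells. Each group had 2 libraries, and all mice were 12 to 20 weeks old, on a C57BL/6 background and of both sexes, and had received the DREADD ligand clozapine N-oxide (CNO) at 3 mg per kg 1 h before the tissue with the area postrema and nucleus of the solitary tract was taken, without access to food. In AgRP-Gq;POMC-Gi mice (AgRP-IRES-Cre+/-;hM3DGqfl/-;POMC-Dre+/-;hM4DGifl/-), Cre in AgRP neurons switches on the excitatory receptor hM3DGq and Dre in POMC neurons the inhibitory receptor hM4DGi. Controls, labelled WT, had neither recombinase, whereas the study's Methods give them both receptor alleles, which stay silent without a recombinase. The Methods say that mice of a condition were pooled, with 2 mice per group, and that each condition gave 2 samples. The number of mice in each library is not clear from the sources used here. The p-values therefore refer only to these libraries, which are not stated to be separate mice. Values of the 4 libraries are given below in the order control replicates 1 and 2, AgRP-Gq;POMC-Gi replicates 1 and 2.

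Few leukocytes enter healthy brain tissue, and those present lie largely in the meninges, the choroid plexus and the perivascular space. The area postrema has fenestrated vessels and lacks a tight blood-brain barrier. Lymphocytes are recognised by antigen receptors and their signalling proteins (T cells), by killer cell lectin-like receptors and granzymes (NK and cytotoxic T cells) or by immunoglobulin genes (B cells), and monocytes, dendritic cells and macrophages by lysozyme, growth factor receptors and antigen presentation through MHC class II. The authors separated a pair of other immune types, 969 Tmem119 immune nuclei, named for a microglia gene, and 88 F13a1 immune nuclei, named for a gene of border macrophages. *Ms4a4b* (chr19:11443553-11467055 on GRCm38, plus strand) encodes a 4-pass membrane protein best known from T cells.

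Ms4a4b immune nuclei numbered 11, 15, 14 and 21 in the 4 libraries and formed a single cluster of the authors. They held 103052 UMIs (unique molecular identifiers, each standing for a captured RNA molecule) of 12402 genes, and the median nucleus had 1343, 1862, 1545 and 1113 UMIs, against 3211 to 3502 over all kept nuclei of a library. None of their barcode sequences occurred in a second library among Ms4a4b immune nuclei. Control replicate 1 stood apart. It held all 4 nuclei with a UMI of fewer than 2 of 16 leukocyte genes, and these 4 nuclei supplied 55.1% of its UMIs. For this reason the main comparisons of genes between groups are also given for the 57 other nuclei.

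The marker itself was detected in a minority of the nuclei. *Ms4a4b* had 7, 11, 9 and 17 UMIs in the 4 libraries, in 18 of 61 nuclei (29.5%, exact 95% interval 18.5 to 42.6%, median depth 1472 UMIs). It was detected in 6 of 88 F13a1 immune nuclei (6.82%, median 1712 UMIs), in 0.516% of Tmem119 immune nuclei and in 0.107% of oligodendrocytes (median 2460 UMIs), which should lack it. With each nucleus thinned to 800 UMIs these shares were 26.2%, 4.55%, 0.206% and 0.0357%. The level was 423 ± 59.4 counts per 1e6 UMIs (CPM; mean ± SD of the 4 libraries) against 35.4 ± 29.4 CPM in F13a1 immune nuclei. Over all nuclei the 4 libraries were close to each other. The 4 nuclei of control replicate 1 with few leukocyte genes had no UMI of *Ms4a4b* but 55.1% of that library's UMIs, which lowers its level over all nuclei. Intervals of shares cover counting error only, and because clusters were formed from the same counts, levels in one cell type against another are given as a description without a test.

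Pan-leukocyte genes were found in nearly all nuclei. UMIs of at least 2 of the 16 leukocyte genes were present in 57 of 61 nuclei (93.4%), and all 16 genes were detected. *Ptprc*, the leukocyte common antigen CD45, was detected in 52 nuclei at 3065 ± 1705 CPM, against 732 ± 47.8 CPM in F13a1 and 792 ± 76.1 CPM in Tmem119 immune nuclei. *Arhgap15*, a Rac regulator of leukocytes, was detected in 53 nuclei at 2930 ± 366 CPM, and *Dock2*, which activates Rac in migrating leukocytes, in 48. Genes that define microglia and border macrophages were lower in sum than in the types named for them, and some were not detected. Of the 12 microglia genes 9 had a UMI. At least 1 was found in 36 nuclei (59.0%) and at least 2 in 17 (27.9%), against 99.6% of Tmem119 immune nuclei with at least 2. Of the 12 border macrophage genes 7 had a UMI, and at least 2 were found in 4 nuclei (6.56%), against 94.3% of F13a1 immune nuclei. *Tmem119*, *Sall1*, *Fcrls*, *Cd163*, *Lyve1* and *Pf4* had no UMI, which for *Tmem119* allows a share of nuclei with a UMI of up to 5.87% (exact 95% limit) at this depth, and the 12 microglia genes summed to 885 ± 108 CPM against 8319 ± 520 CPM in Tmem119 immune nuclei. The 12 border macrophage genes summed to 206 ± 212 CPM against 12936 ± 3415 CPM in F13a1 immune nuclei.

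T cell genes were carried by part of the nuclei. At least 2 of 28 T cell genes were detected in 22 of 61 nuclei (36.1%), that is in 2, 8, 4 and 8 nuclei of the 4 libraries, and in 3 of 88 F13a1 (3.41%) and 16 of 969 Tmem119 immune nuclei (1.65%). At 800 UMIs a nucleus the 3 shares were 31.1%, 0% and 0%. All 28 genes had a UMI. *Skap1*, an adaptor of the T cell receptor, had 7, 40, 10 and 28 UMIs, *Themis*, which is needed for T cell development, had 7, 8, 5 and 13, and the kinase *Lck* had 4, 7, 1 and 12. Each of these was present in every library. The co-receptor genes were sparse, with 1 UMI of *Cd4*, 4 of *Cd8a* and 6 of *Cd8b1*. *Foxp3* and *Ctla4*, defining genes of regulatory T cells, had no UMI. Of 7 gamma-delta T cell genes 5 had a UMI, 9 UMIs in all in 4 nuclei, and 2 nuclei (3.28%) carried at least 2 of them, against 0 nuclei of the F13a1 and Tmem119 immune types, while *Tcrg-C1* had none.

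NK and cytotoxic genes were detected in a subset of the nuclei with T cell genes. At least 2 of the 21 NK and cytotoxic genes were found in 13 nuclei (21.3%), in 1, 5, 2 and 5 nuclei of the 4 libraries, and all 13 also carried at least 2 T cell genes. Nuclei with 12 or 13 of the NK and cytotoxic genes carried 4 or 5 T cell genes, so carrying both does not tell T cells from NK cells. A list of T cell receptor, CD3 and co-receptor genes, which also held *Themis*, *Cd5*, *Cd6* and *Cd28*, was drawn up after the values were seen. Of the 13 nuclei with NK and cytotoxic genes, 12 held a UMI of a gene on it, and 12 held *Ms4a4b*. *Klrk1*, which encodes the activating receptor NKG2D, had 5, 27, 3 and 8 UMIs in 10 nuclei. *Ccl5*, a chemokine stored by cytotoxic lymphocytes, had 0, 6, 2 and 9 UMIs in 9 nuclei, and *Ncr1*, which encodes the NK cell receptor NKp46, had 9 UMIs in 4 nuclei. *Klrk1* and *Ccl5* thus had their highest count in different libraries. No UMI of the whole NK list was found in the 88 F13a1 immune nuclei.

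B cell genes were found in few nuclei once genes shared with other antigen-presenting cells were set aside. At least 2 genes of the 19-gene B cell list were present in 20 nuclei (32.8%), but without the 4 MHC class II genes and *Ebf1*, a reduction made after the values were seen, the count was 4 nuclei (6.56%), in 0, 1, 1 and 2 nuclei of the 4 libraries. At full depth and with 2 genes required, this share was not higher than in the other immune types. At least 2 genes of the reduced list were present in 19.3% of F13a1 and 11.1% of Tmem119 immune nuclei, and 2 of the full list in 63.6% and 13.1%. At 800 UMIs a nucleus the shares for the reduced list were 6.56%, 11.4% and 2.27% in Ms4a4b, F13a1 and Tmem119 immune nuclei. With at least 3 of its genes required they were 6.56%, 3.41% and 1.03%. The 4 Ms4a4b immune nuclei carried 12, 5, 6 and 7 genes of the reduced list. *Ms4a1*, which encodes CD20, had 3 UMIs in 2 nuclei and the B cell transcription factor *Pax5* 7 UMIs in 3 nuclei. *Jchain* and *Mzb1* of plasma cells had no UMI. At least 2 of 10 innate lymphoid cell genes were detected in 7 nuclei (11.5%), against 11.4% of F13a1 immune nuclei, 1.14% of Tmem119 immune nuclei and 20.2% of oligodendrocytes. At 800 UMIs a nucleus the shares were 8.20%, 4.55%, 0.310% and 4.20%. *Zbtb16*, a factor of innate-like lymphocytes, had 21 UMIs in 12 nuclei, and *Rora*, a nuclear receptor of innate lymphoid and other cells, 19 UMIs in 9. Of the *Zbtb16* UMIs only 8 lay in nuclei with T cell genes, and 11 lay in nuclei with myeloid or MHC class II genes and no lymphocyte set. *Il23r*, the IL-23 receptor, had 4 UMIs, in 1 nucleus of control replicate 2, and *Il1rl1*, the IL-33 receptor, had 9 UMIs in 4 nuclei. Of 14 lymphocyte effector cytokine genes 8 had a UMI, 32 UMIs in all in 15 nuclei, 4 of which carried at least 2 of the genes. *Tnf* had 6 UMIs in 5 nuclei and the chemokine *Xcl1* 4 in 4, while *Ifng*, *Il2*, *Il10* and *Il17a* had none.

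**Figure D1:**
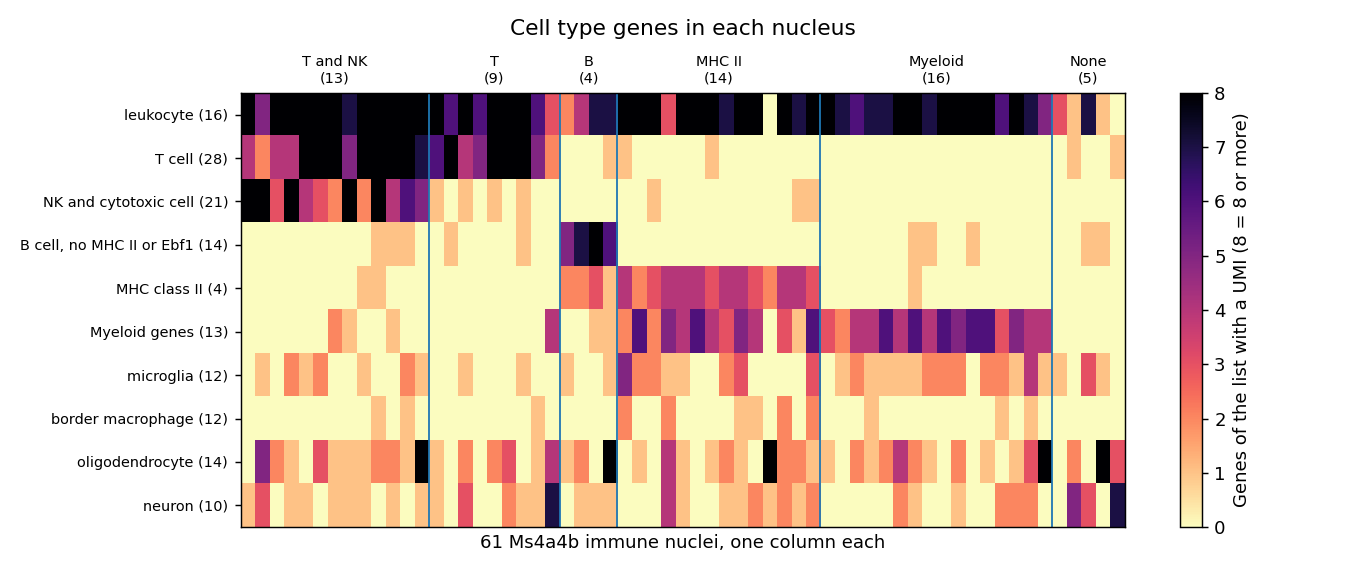
Genes of 10 cell type lists detected in each of the 61 Ms4a4b immune nuclei. Columns are nuclei, grouped by the first list in this order of which they carry at least 2 genes (13 with T and NK genes, 9 with T, 4 with B, 14 with MHC class II, 16 with myeloid genes and 5 with none of these), rows are lists with their number of genes, and colour gives the number of genes with a UMI. No column has 2 or more genes of both the T cell list and MHC class II, and 3 of the 5 last nuclei carry fewer than 2 leukocyte genes.

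The other large share of Ms4a4b immune nuclei carried myeloid or MHC class II genes. For this count 13 myeloid genes and the 4 MHC class II genes were listed after the values were seen. At least 2 myeloid genes were found in 30 nuclei and at least 2 MHC class II genes in 17, with 12 nuclei in both. These shares of 49.2% and 27.9% compare with 83.0% and 36.4% of F13a1 and 80.9% and 0.103% of Tmem119 immune nuclei. None of the 22 nuclei with T cell genes had 2 MHC class II genes, and 2 of them had 2 myeloid genes. Nuclei with MHC class II or myeloid genes and without T, NK or B cell genes numbered 4, 6, 9 and 11 in the 4 libraries, that is 36.4% and 40% of the nuclei in control and 64.3% and 52.4% in AgRP-Gq;POMC-Gi libraries. Among nuclei with at least 2 leukocyte genes they were 3 of 7, 6 of 15, 9 of 14 and 11 of 21. These are small numbers of nuclei. *Lyz2*, which encodes lysozyme, had 7, 9, 21 and 37 UMIs in 22 nuclei, and *Cd74*, the MHC class II invariant chain, had 3, 21, 45 and 76 UMIs in 21 nuclei. *S100a9*, abundant in neutrophils, had 14 UMIs in 3 nuclei. For 5 nuclei, all in control replicate 1, none of the T, NK, B cell, MHC class II and myeloid lists had 2 genes.

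Genes on none of these lists divided between the same nuclei. *Gm2682* (chr15:60120540-60187408, minus strand), annotated as a long intergenic non-coding RNA, had 8, 45, 36 and 58 UMIs in 17 nuclei, and all 147 UMIs lay in nuclei with T cell genes. *Fgr*, a Src-family kinase of myeloid cells, had 2, 5, 19 and 16 UMIs, and all 42 lay in nuclei with MHC class II or myeloid genes, as did 41 of 44 UMIs of *Gpr141*, an orphan G protein-coupled receptor. *Ms4a4b* followed the first pattern, with 41 of 44 UMIs in nuclei with T cell genes, where 15 of 22 nuclei had it against 3 of the 39 others. The Ms4a family was split. *Ms4a6c* had 27 of its 40 UMIs in the myeloid and MHC class II nuclei, and both it (344 ± 216 against 505 ± 349 CPM) and *Ms4a6b* (253 ± 128 against 658 ± 341 CPM) were lower in Ms4a4b than in F13a1 immune nuclei by their means, with overlapping SDs.

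The 20 genes that most set Ms4a4b immune nuclei apart came from both sets. They were ranked, among the 1200 genes found in 20% or more of the nuclei and in every library, by the ratio of their mean CPM to the highest mean in any of the 13 other cell types, with 1 CPM added to both. *Gm2682* led at 1354 ± 626 CPM and a ratio of 918, followed by *Gpr141* (442 ± 372 CPM, ratio 228) and the integrin *Itgal*, the alpha chain of LFA-1, with which leukocytes adhere to vessels (344 ± 182 CPM, ratio 165). *Grap2*, *Lck*, *Skap1*, *Tespa1* and *Ptpn22*, which act in T cell receptor signalling, and *Ikzf3* and *Stat4*, a transcription factor and a cytokine signal transducer of lymphocytes, had ratios from 5.03 (*Ptpn22*) to 138 (*Grap2*). *Fgr* and *Ccr2*, a chemokine receptor of monocytes, had ratios of 21.2 and 8.38. *Cd244a*, a receptor of NK cells and other leukocytes, had 35 of its 45 UMIs in the nuclei with MHC class II or myeloid genes and 10 in those with T cell genes. The ranking also held *Cytip*, *Atp8b4*, *Cd44*, *Cd52*, *Ripor2* and *Ms4a4b* itself, at a ratio of 11.7. The SDs are large, and *Ccr2*, for example, had 1, 5, 3 and 25 UMIs.

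**Figure D2:**
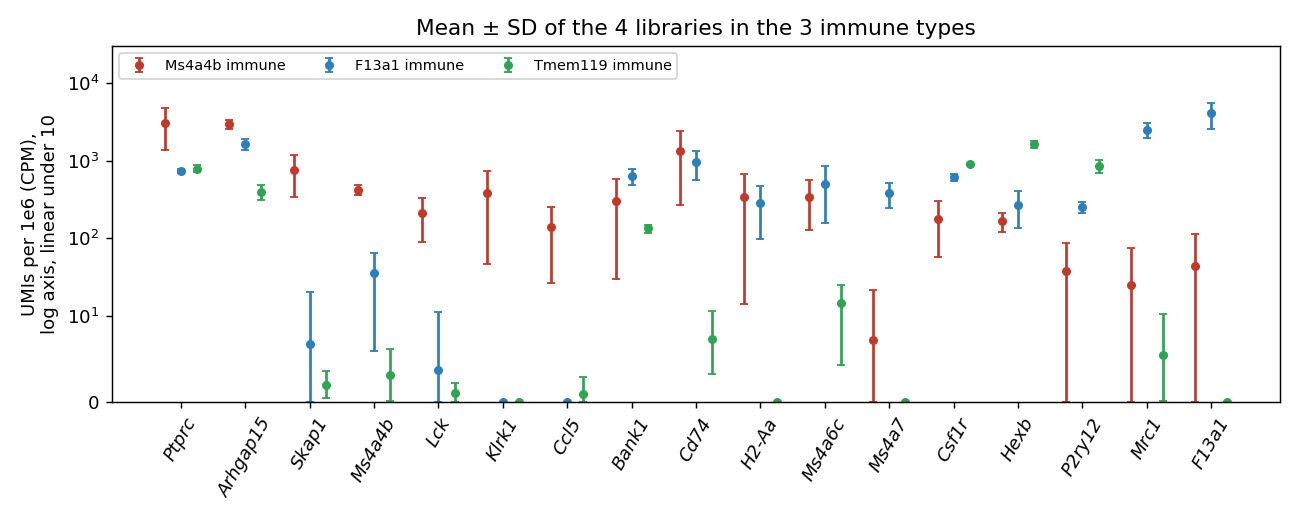
Levels of selected genes in the 3 immune types, as mean ± SD of the 4 libraries in counts per 1e6 UMIs (CPM), on an axis that is logarithmic above 10 CPM and linear below. *Klrk1* was at 0 in both other types, *Cd74* and *Ms4a6c* overlapped between Ms4a4b and F13a1 immune nuclei, and *F13a1* and *Mrc1* were highest in F13a1 immune nuclei.

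The first comparison between groups concerned the number of nuclei. Ms4a4b immune nuclei made up 0.113% and 0.149% of the kept nuclei in control libraries (exact 95% intervals 0.0565 to 0.202% and 0.0836 to 0.246%) and 0.144% and 0.211% in AgRP-Gq;POMC-Gi libraries (0.0787 to 0.241% and 0.131 to 0.322%). The groups overlapped and so did all 4 intervals. In edgeR's quasi-likelihood test over the counts of the 14 cell types the log2 difference was 0.43 (SE 0.30, Benjamini-Hochberg adjusted p = 0.527), and 7.14% of the types passed an adjusted p of 0.05. The difference was 0.25 or 0.64 when control replicate 1 or 2 was left out, and 0.68 or 0.13 when AgRP-Gq;POMC-Gi replicate 1 or 2 was. F13a1 immune nuclei numbered 15, 37, 17 and 19, a log2 difference of -0.51 (SE 0.52), and Tmem119 immune nuclei 244, 260, 225 and 240, a log2 difference of -0.11 (SE 0.11), with adjusted p = 0.600 for both in the same test. An exact two-sided permutation test of 2 against 2 libraries cannot go below p = 0.333.

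**Figure D3:**
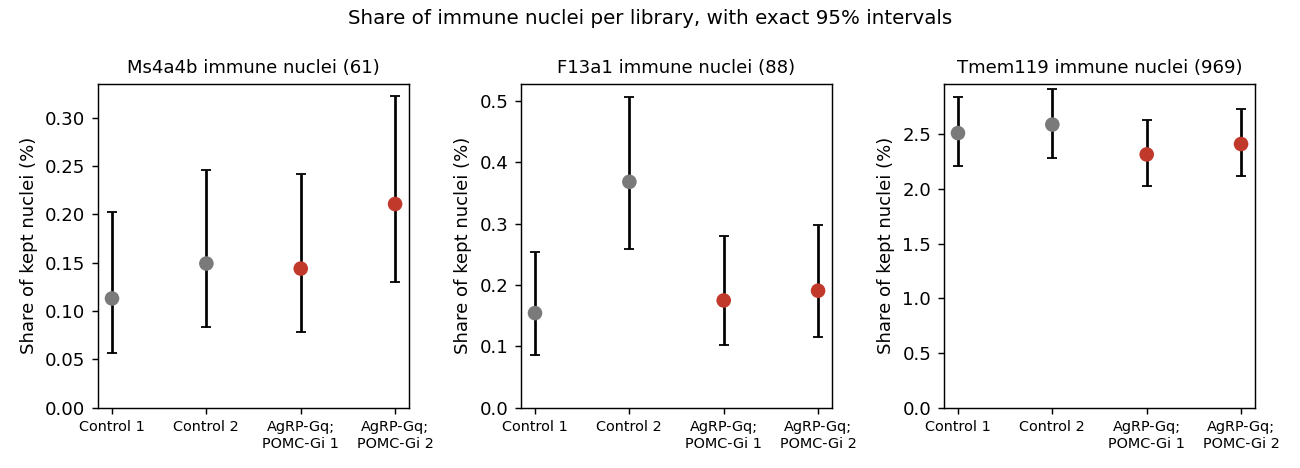
Share of kept nuclei in each library for Ms4a4b, F13a1 and Tmem119 immune nuclei, with exact 95% binomial intervals and each vertical axis starting at 0. Shares of Ms4a4b immune nuclei lay between 0.113% and 0.211% with overlapping intervals, and control replicate 2 had the highest share of F13a1 immune nuclei.

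The second comparison concerned the genes of these nuclei. Of 5869 genes detected in 5% or more of the nuclei, 11 (0.187%) passed an adjusted p of 0.05 in edgeR's quasi-likelihood test on summed UMIs, 10 lower and 1 higher in AgRP-Gq;POMC-Gi. The lower genes, among them *Gpc6*, *Lrrtm4*, *Grik2*, *Mapk10*, *Fgf14*, *Ptprd*, *Kirrel3*, *Meg3* and *Dpp10*, are mostly known from neurons and their synapses. *Lrrtm4*, a synaptic adhesion gene, had 175, 6, 0 and 10 UMIs (log2 fold change -4.87, SE 0.89, adjusted p = 0.000138). Of its 191 UMIs, 173 came from 1 nucleus of control replicate 1, which had 4355 UMIs and no leukocyte gene. The same nucleus held 65 of 69 UMIs of *Gpc6*, 92 of 106 of the glutamate receptor gene *Grik2* and 196 of 276 of *Ptprd*. For *Fgf14* (5, 32, 0 and 2 UMIs), 32 UMIs lay in 1 nucleus of control replicate 2.

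*Adgre4*, which encodes an adhesion receptor of monocytes and macrophages, was the only gene that passed and was higher in AgRP-Gq;POMC-Gi. It had 0, 3, 26 and 12 UMIs in 12 nuclei (49.5 ± 70.0 against 832 ± 690 CPM, log2 fold change 3.54, SE 0.90, edgeR adjusted p = 0.0479), so that both AgRP-Gq;POMC-Gi libraries were above both control libraries, and no nucleus held more than 10 UMIs. With 1 library left out *Adgre4* did not pass in any of the 4 settings (edgeR adjusted p = 0.0656 to 0.984), and its log2 fold change ranged from 2.43 to 7.20, the highest without control replicate 2. Of its 41 UMIs, 40 lay in the nuclei with MHC class II or myeloid genes (it is itself on the myeloid list), which were 10 in control and 20 in AgRP-Gq;POMC-Gi libraries. The level in F13a1 immune nuclei was 0 and in Tmem119 immune nuclei 14.7 ± 7.83 CPM. It was detected in 0, 2, 7 and 3 nuclei of the 4 libraries, and within the nuclei with MHC class II or myeloid genes its level was 0, 141, 1918 and 622 CPM. Leaving *Adgre4* out of the choice of these nuclei left the same 4, 6, 9 and 11 nuclei, with the same level. In the 57 nuclei with at least 2 leukocyte genes, a choice made after the values were seen, none of the 11 genes passed (*Adgre4*, log2 fold change 3.39, edgeR adjusted p = 0.414) and 1 other did, *Mertk*, a phagocytic receptor tyrosine kinase, with 13, 12, 0 and 0 UMIs in 3 nuclei. DESeq2 gave 0 genes, with 39 at an unadjusted p under 0.05 against 381 in edgeR. In F13a1 immune nuclei 1 of 6497 genes (0.0154%) passed the same test.

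**Figure D4:**
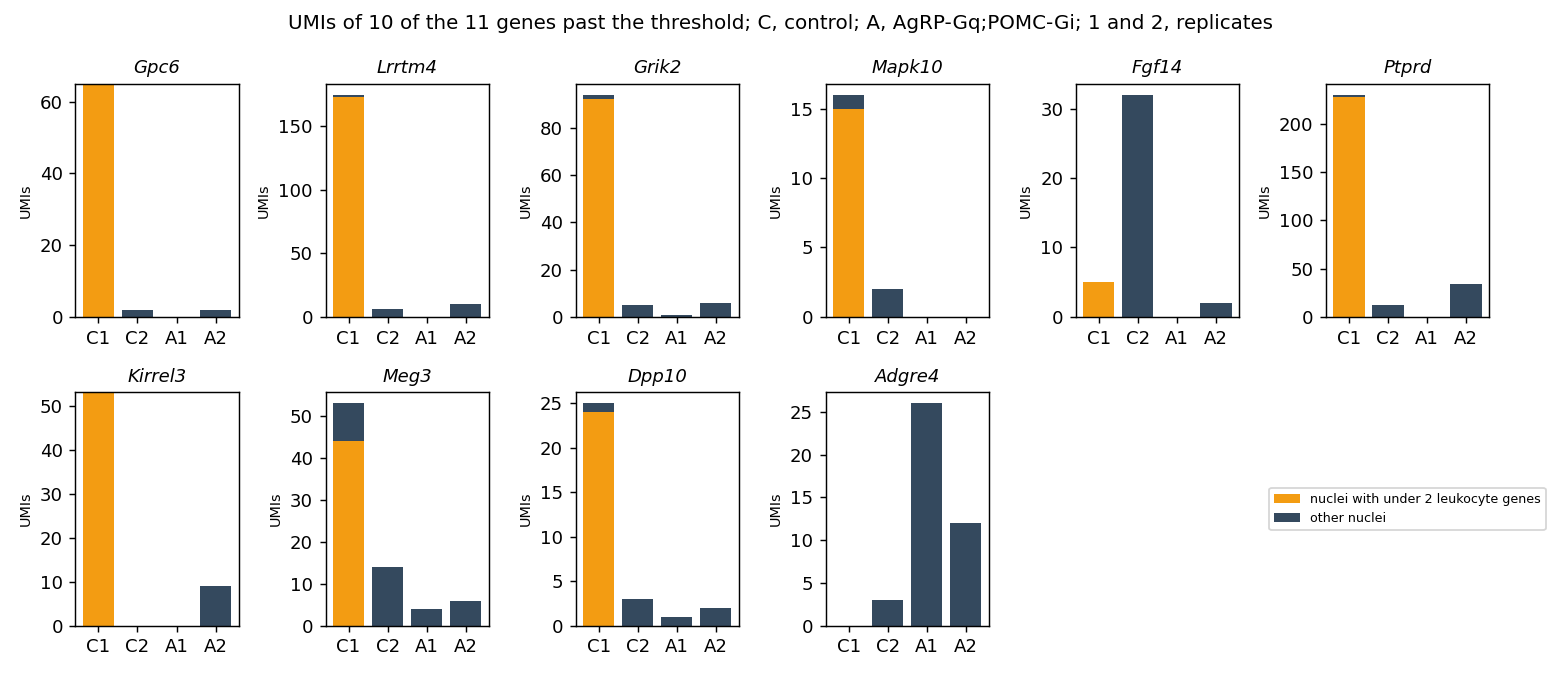
UMIs in each library (C, control; A, AgRP-Gq;POMC-Gi; 1 and 2, replicates) of 10 of the 11 genes past an adjusted p of 0.05, in bars from 0. Orange marks the 4 nuclei of control replicate 1 with fewer than 2 leukocyte genes, which supply most UMIs of the lower genes shown except *Fgf14*, and none of *Adgre4*.

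No gene of the T cell, NK, B cell or leukocyte lists passed the test. Of 13 tested T cell genes 3 were above and 10 below 0, with a median log2 fold change of -0.37, and of 16 leukocyte genes 12 were above and 4 below, with a median of 0.38, beside a median of 0.02 over all genes tested. Of these, 4 T cell and 12 leukocyte genes had 20 or more UMIs over the 4 libraries. The leukocyte median was 0.07 when control replicate 1 was left out and 0.88 when control replicate 2 was. The T cell median turned to 0.19 without control replicate 2 (8 above and 5 below) and to 0.05 over 28 genes with no gene filter. In the 57 nuclei with at least 2 leukocyte genes the leukocyte list had a median of 0.19, the T cell list of -0.58 and all genes of 0.18. The level of *Ms4a4b* was 373 ± 14.8 CPM in control libraries against 473 ± 22.3 CPM (log2 fold change 0.29, SE 0.73, edgeR adjusted p = 0.967). Within the nuclei with T cell genes it was 2919, 692, 1502 and 1388 CPM, so that the groups overlapped there, with only 2 such nuclei in control replicate 1. *Ptprc* had 36, 57, 109 and 100 UMIs, or 1927 ± 66.2 and 4204 ± 1881 CPM (log2 fold change 1.02, SE 0.75, edgeR adjusted p = 0.956), with a log2 fold change of 0.78 in the 57 nuclei and 0.57 without AgRP-Gq;POMC-Gi replicate 1. *Klrk1* was at 582 ± 436 and 191 ± 54.8 CPM (log2 fold change -1.63, SE 0.76, edgeR adjusted p = 0.709), with 891 CPM in control replicate 2 and 152 to 274 CPM in the other 3 libraries. Within the nuclei with T cell genes it was at 2085, 1869, 376 and 694 CPM, from 5, 27, 2 and 8 UMIs, and both control libraries were above both AgRP-Gq;POMC-Gi libraries. With 1 library left out its log2 fold change over all nuclei ranged from -2.21 to -0.50. The median log2 fold changes were 0.84 for 12 NK and cytotoxic genes, 0.51 for 18 T cell receptor signalling genes and 0.69 for 16 cytokine receptor and JAK-STAT genes. Only 1, 9 and 7 genes of these lists had 20 or more UMIs over the 4 libraries. Of 9 tested genes of the B cell list, which includes MHC class II genes, 8 were above 0 and 6 had 20 or more UMIs, with a median of 1.45. These medians were 0.44, 0.45, 0.57 and 1.27 in the 57 nuclei. The signalling median was 0.95 and the B cell median 3.66 without control replicate 2, and the B cell median was 0.70 over 18 genes with no gene filter and 0.95 when AgRP-Gq;POMC-Gi replicate 2 was left out. The NK median changed with single libraries, being -0.39 (5 above and 7 below) without AgRP-Gq;POMC-Gi replicate 2, 0.10 (6 and 6) without control replicate 1 and 4.46 without control replicate 2, and it was -1.21 over the 5 genes detected in 10% of nuclei.

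Genes of antigen presentation had higher values in AgRP-Gq;POMC-Gi libraries without passing the test. All 12 tested genes of the interferon response and MHC class I list lay above 0, with a median log2 fold change of 1.43, 3 of them with an unadjusted p under 0.05, where 6.49% of all genes had one. Of the 12 genes, 4 had 20 or more UMIs over the 4 libraries, so the median rests mostly on sparse genes. In the 57 nuclei with at least 2 leukocyte genes the median was 1.21 over 13 genes, beside 0.18 over all genes, and without control replicate 2 it was 4.28. *H2-K1*, an MHC class I heavy chain, had 8, 16, 26 and 31 UMIs in 40 nuclei (483 ± 63.0 against 1105 ± 304 CPM, log2 fold change 1.09, SE 0.70, edgeR adjusted p = 0.923). *H2-D1*, another heavy chain, had 4, 16, 31 and 27 UMIs (log2 fold change 1.48, SE 0.71, edgeR adjusted p = 0.730), and *B2m*, their shared light chain, 0, 16, 14 and 21. Levels per library were taken over all nuclei, and the 4 nuclei of control replicate 1 with few leukocyte genes supplied 55.1% of its UMIs. By this measure, as CPM, each of the 3 genes was higher in both AgRP-Gq;POMC-Gi libraries than in both control libraries. Within the nuclei with T cell genes this held for *H2-D1* (1251, 692, 1314 and 1301 CPM) but not for *H2-K1* (2919, 831, 1127 and 1561 CPM) or *B2m* (0, 623, 188 and 347 CPM), and control replicate 1 had only 2 such nuclei with 3, 7 and 0 UMIs of the 3 genes. Within the nuclei with MHC class II or myeloid genes it held for all 3 genes, with *H2-K1* at 0, 211, 1328 and 570 CPM, *H2-D1* at 0, 281, 1697 and 570 CPM and *B2m* at 0, 422, 959 and 881 CPM. The summed level of the list was 4170, 3185, 6008 and 5204 CPM in nuclei with T cell genes and 324, 1477, 5827 and 3215 CPM in nuclei with MHC class II or myeloid genes. Of the latter, control replicate 1 had 4 with 2 UMIs of the list, and without 1 of them that had no leukocyte gene its level was 565 CPM. *Cd74* had 3, 21, 45 and 76 UMIs (429 ± 374 against 2234 ± 71.4 CPM, log2 fold change 2.25, SE 0.74, edgeR adjusted p = 0.344), and the integrin *Itga4*, an adhesion receptor for vessel entry, 4, 10, 29 and 40 (log2 fold change 2.13, SE 0.73, edgeR adjusted p = 0.409). In the 57 nuclei the log2 fold change was 0.87 for *H2-K1*, 1.40 for *H2-D1*, 0.95 for *B2m* and 2.17 for *Cd74*. With 1 library left out, the log2 fold change over all nuclei ranged from 0.99 to 2.28 for *H2-D1* and from 0.86 to 1.24 for *H2-K1*. Leaving out 1 library moved that of *B2m* from 0.23 (without control replicate 1) to 6.96 (without control replicate 2), and that of *Cd74* between 1.60 and 3.66 in the same settings. The share of nuclei with MHC class II or myeloid genes moved with these values, and its part in them was not tested. *Cd74* is 1 of the 4 MHC class II genes that define these nuclei, and with the nuclei chosen without it they numbered 3, 6, 9 and 11. In the same libraries F13a1 immune nuclei had log2 fold changes of -0.25 for *H2-K1*, -0.09 for *H2-D1* and 0.28 for *Cd74*.

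Genes that respond to glucocorticoids had mostly lower values. Of 13 tested genes of the glucocorticoid and adrenergic list, 10 lay below 0, with a median log2 fold change of -1.45, 3 with an unadjusted p under 0.05 and none past the adjusted threshold. Only 3 of the 13 genes had 20 or more UMIs over the 4 libraries, so this median also rests mostly on sparse genes. In the 57 nuclei with leukocyte genes the median was -1.36 over 14 genes, and with either one of the control libraries left out it was -0.89 over all nuclei. Without 6 nuclei rich in oligodendrocyte RNA it was -0.94 over 13 genes. The whole list summed to 2961, 3101, 1828 and 1408 CPM in Ms4a4b immune nuclei and to 3029, 2796, 2000 and 1631 CPM in oligodendrocytes. The part of oligodendrocyte RNA in these values was not tested. *Fkbp5*, a chaperone gene induced by glucocorticoids, had 5, 25, 3 and 6 UMIs in 20 nuclei (549 ± 389 against 162 ± 14.2 CPM, log2 fold change -1.81, SE 0.78, edgeR adjusted p = 0.664). *Zbtb16*, also induced by glucocorticoids, had 3, 13, 0 and 5 UMIs (log2 fold change -1.82, SE 0.90, edgeR adjusted p = 0.730). As CPM over all 61 nuclei, both genes were lower in each AgRP-Gq;POMC-Gi library than in each control library, by a small margin against control replicate 1. Within the nuclei with T cell genes *Fkbp5* was at 417, 415, 563 and 173 CPM, from 1, 6, 3 and 2 UMIs, so that the groups overlapped there. Within those with MHC class II or myeloid genes it was at 324, 1336, 0 and 207 CPM, from 2, 19, 0 and 4 UMIs. As CPM both AgRP-Gq;POMC-Gi libraries were below both control libraries in this set, but control replicate 1 rested on 2 UMIs. Without 1 nucleus that had no leukocyte gene, control replicate 1 was at 282 CPM in the latter set, from 1 UMI. *Zbtb16* was at 324, 492, 0 and 104 CPM in that set, from 2, 7, 0 and 2 UMIs. Without the same nucleus it was at 0 CPM in control replicate 1, so that the groups overlapped. The log2 fold change of *Fkbp5* was -0.76 without control replicate 2, and that of *Zbtb16* was -0.89 in the same setting, -5.91 when AgRP-Gq;POMC-Gi replicate 2 was left out and -1.10 when replicate 1 of that group was. *Nr3c1*, the glucocorticoid receptor, had 2, 16, 12 and 5 UMIs and a log2 fold change of -0.06. The same contrast gave -1.52 and -1.88 for *Fkbp5* and *Zbtb16* in F13a1 and -1.08 and -3.15 in Tmem119 immune nuclei, none past the threshold. These come from the same 4 libraries.

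**Figure D5:**
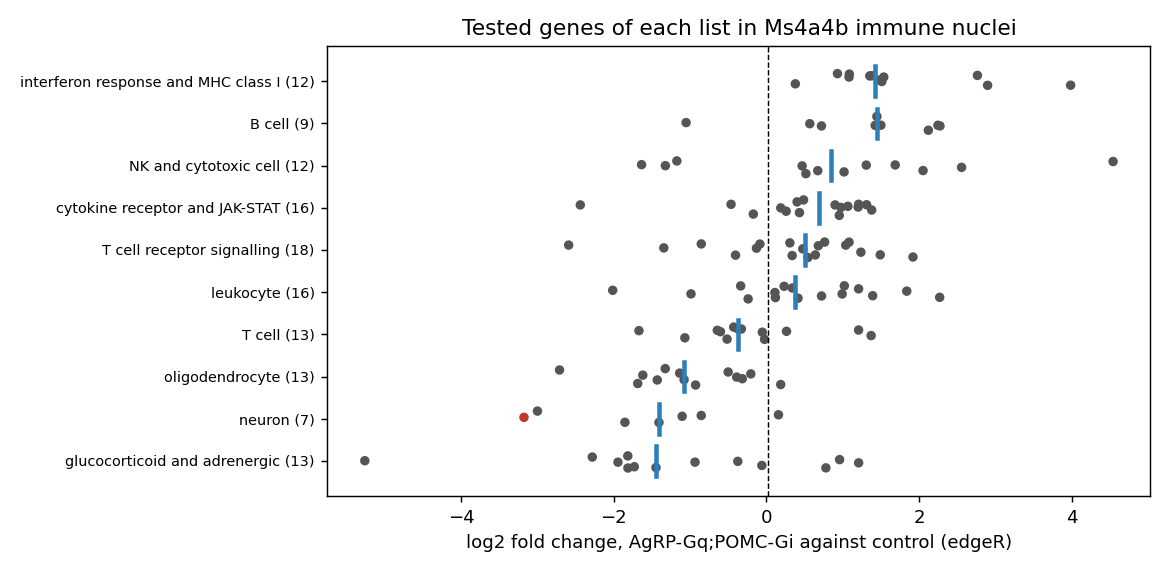
Log2 fold change of AgRP-Gq;POMC-Gi against control (edgeR) for each tested gene of 10 lists in Ms4a4b immune nuclei, with the number of tested genes in brackets. Blue bars are medians, the dashed line is the median of all 5869 genes (0.02), and the 1 red point, *Meg3* on the neuron list, passed an adjusted p of 0.05. The interferon and MHC class I list has a median of 1.43 and the glucocorticoid and adrenergic list of -1.45.

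RNA of other cell types was present in Ms4a4b immune nuclei and was unequal between libraries. *Ttr*, the main transcript of the choroid plexus, had 0, 159, 1 and 122 UMIs in 37 nuclei, while choroid plexus nuclei numbered 2, 436, 6 and 329. Both followed the replicate number and not the group. The 14 oligodendrocyte genes took a median of 0.0927% of a nucleus's UMIs, against 2.25% in oligodendrocytes, and 6 nuclei (2, 2, 0 and 2) exceeded 0.563%. Of 13 tested oligodendrocyte genes 12 lay below 0 in the comparison of groups, with a median of -1.08, but 7 of 13 did in the 57 nuclei with leukocyte genes, with a median of -0.10. Without control replicate 1 the median was -0.60, and it was -0.30 or -3.36 when AgRP-Gq;POMC-Gi replicate 1 or 2 was left out. The immediate early genes on the study's list of activity markers, 9 of 10 of which had a UMI, showed 5 tested genes and none past the threshold. *Btg1* had 2, 6, 3 and 5 UMIs, *Nr4a1* 2, 2, 9 and 0, and *Fos* 1 in all.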

How the data were processed

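The deposited matrices hold whole UMI counts per gene and barcode. The authors made them with Cell Ranger 7.0.0 on GRCm38 (mm10) and processed them further with Seurat 4.3.0. Nuclei were sorted on DNA content before loading. Cell types, clusters and kept nuclei were taken from the deposited table, and totals from the matrices equal its totals in 44303 of 44303 barcodes. The authors kept nuclei with 800 or more UMIs, 500 or more genes and up to 10% of UMIs from mitochondria, and removed doublets.

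UMIs were summed per library and cell type. Groups were compared with the quasi-likelihood test of edgeR 4.0.16 (TMM factors, R 4.3.3) over genes detected in 5% or more of the nuclei, with Benjamini-Hochberg adjustment. In the main test of genes the spread was estimated almost wholly over all genes together. A gene's own spread between libraries of a group therefore hardly entered its p-value. SEs of genes were computed from the log2 fold change and the F value of the test, so they share this limit. Nuclei were thinned to 800 UMIs with 1 seed, and none was shallower. Positions are from GENCODE. Named genes are up to 4 examples of a list by UMIs and its defining genes, the 20 genes of highest ratio, and genes past the threshold or of smallest p. Others were chosen after their values were seen. Some genes that meet these rules are not reported here. Members and lists were chosen with earlier results of these data known. On simulated data edgeR called 51% of 200 genes changed 8-fold and 4% of those changed 4-fold, with 0 false calls. The simulated counts were drawn independently for each gene with the same spread in every library. That spread was assumed and not estimated from these data. The changed genes were drawn without those of fewest UMIs, so the shares called are not those of the real comparison. The simulated counts held no single nucleus that supplies most UMIs of many genes, so false calls of the real comparison were not measured.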

Additional observations from a re-analysis of the deposited data

Results flagged for a closer look

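Barcodes that the authors left out also held lymphoid genes. UMIs of at least 2 of 21 lymphoid genes were present in 32 of 4842 barcodes that were not kept, against 21 of 61 Ms4a4b immune nuclei, 0 of 88 F13a1 immune nuclei and 1 of 16816 oligodendrocytes. Of the 905 barcodes below the stated filter, 6 had UMIs of at least 3 of these genes (2, 3, 0 and 1 in the 4 libraries). These 6 had 631 to 795 UMIs and 518 to 646 genes, so all missed the minimum of 800 UMIs and none the minimum of 500 genes. For comparison, 16 Ms4a4b immune nuclei had at least 3 of the genes. The remaining 26 barcodes met the filter, at a median of 5773 UMIs over all 3937 barcodes of that kind, and 4 of them had at least 3 of the genes. At least 2 of the genes were also found in 62 of 12539 neurons, at a median of 8704 UMIs.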

How the results depend on the processing

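The number of genes past the threshold was 11, and the same test gave 9 without TMM factors (all shared), 10 with no gene filter (4 shared), 0 with filterByExpr (34 unadjusted), 0 with detection in 10% of nuclei (203 unadjusted), 19 without nuclei rich in oligodendrocyte RNA (10 shared) and 1 in nuclei with at least 2 leukocyte genes, while DESeq2 gave 0, with 39 genes at an unadjusted p under 0.05. Leaving out 1 library gave 0 to 4 genes: 4 without control replicate 1 (*Plxdc2*, *Fgf14*, *Prkg1*, *Fgf13*), 0 without control replicate 2 (214 unadjusted), 0 when AgRP-Gq;POMC-Gi replicate 1 was left out (198 unadjusted) and 2 (*Ptprd*, *Lrrtm4*) when replicate 2 of that group was. The lone library of a group was then assumed to vary like the other group. In the 57 nuclei with leukocyte genes *Ptprd* turned to 0.80. With 1 library left out, the log2 fold change ranged from -10.26 to 0.40 for *Ptprd* and -8.07 to 5.15 for *Kirrel3*, the positive value each time without control replicate 1.

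The replicate number as a block gave 0 genes (179 unadjusted; *Adgre4*, edgeR adjusted p = 0.705) and an abundance difference of 0.42. Deviations of same-numbered libraries correlated at -0.20 over 1125 genes and no label ties them, so the numbers were not taken to pair the samples, although *Ttr* and choroid plexus nuclei followed the number, and a block with crossed numbers, added after seeing the data, gave 5 genes. The abundance difference was positive and not past the threshold under every alternative run, from 0.13 to 0.68 with a library left out, and 0.75 for nuclei with at least 2 leukocyte genes (exact permutation p = 0.667).

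The share of nuclei with NK and cytotoxic genes was 32.8% when 1 gene sufficed. That with B cell genes was 49.2% with 1 gene and 6.56% without MHC class II and *Ebf1*. The level of *Ms4a4b* was 519.8 CPM as a mean over nuclei and 541 CPM in nuclei with at least 2 leukocyte genes. With a library left out, the median of the interferon and MHC class I list (1.43) ranged from 0.99, without control replicate 1, to 4.28, without control replicate 2, and that of the glucocorticoid list (-1.45) from -1.96, without AgRP-Gq;POMC-Gi replicate 2, to -0.89, without either control library. Under filterByExpr 3 genes and 1 gene of these lists were tested, with a median log2 fold change of 0.94 for the former and a log2 fold change of -0.21 for the latter. The depth of 61 nuclei limits every comparison of groups, and the cause of these differences between settings was not tested.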

Other observations

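*Xist*, transcribed from the inactive X chromosome, was detected in 7, 4, 3 and 0 nuclei of the 4 libraries and Y-linked genes in 4, 5, 6 and 10. In 1 nucleus both were found and in 23 neither. In oligodendrocytes of the same libraries 6 sex chromosome genes summed to 1436, 1021, 1695 and 465 CPM, so the 2 libraries of a group differed in these genes. AgRP-Gq;POMC-Gi replicate 2, with the most nuclei, was the only library without *Xist* in them, and the sexes pooled into each library are not given.

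Genes of leukocyte traffic and residence were detected in part of the nuclei. *Cd44*, a hyaluronan receptor, had 4, 11, 11 and 11 UMIs in 22 nuclei, 33 of 37 UMIs in the nuclei with MHC class II or myeloid genes. *Cxcr6*, a receptor of resident lymphocytes, had 12 UMIs in 9 nuclei, and *Ccr7*, *Zfp683* and *Rgs1* none.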
